A study of Homo sapiens with 148 samples.

Results

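Pancreatic progenitors (PP) were compared, gene by gene, with SC-β organoids, the cultures differentiated from them toward insulin-making β cells. Of the 49085 gene names in the deposited expression table, the 11117 that reached 10 TPM (a transcript level corrected for length and scaled to the same total in every sample) at either stage are described. Both stages were derived in rotating spheroid culture from 1 line, H9, an established line of human embryonic stem cells (hESCs), with no genetic change named for either. RNA was taken from PP at day 14 and from SC-β organoids at day 35, with 2 RNA-seq samples per stage and no sorting of cells stated. Between these days the medium held SANT1 (an inhibitor of the Hedgehog receptor component Smoothened), retinoic acid, the γ-secretase inhibitor XXI (which blocks Notch cleavage), betacellulin (an EGF family ligand), the TGF-β receptor inhibitor Alk5i II and the thyroid hormone T3. Toward day 35 Alk5i II and T3 alone were kept. The table gives 1 mean per gene and stage over the replicates, so no spread between replicates, error or test can be given, and every difference below compares these 2 means without a replicate check.

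The islets of the pancreas hold several endocrine cell types, each known by its hormone: insulin in β cells, glucagon in α cells, somatostatin in δ cells, pancreatic polypeptide in γ cells and ghrelin in ε cells. All arise from progenitors of the gut endoderm that express PDX1, and then NKX6-1 for the β-cell path, through a short stage marked by NEUROG3. Directed differentiation leads stem cells along this path with added factors, and organoids made this way are known to hold mixtures of cell types. In bulk RNA, fewer cells of a type and less of its RNA per cell cannot be told apart.

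Markers of both stages were read first. INS (insulin) was at 6.93 TPM in PP and 298 TPM in the organoids, GCG (glucagon) at 16.5 and 2793 TPM, and SST (somatostatin) at 48.1 and 203 TPM. All 3 hormones were thus higher in the organoids, with log2 ratios of 5.24, 7.32 and 2.06, computed as log2((TPM + 1) in the organoids / (TPM + 1) in PP). GCG and not INS was the most abundant hormone in the organoids named for β cells, with 9.37 times the TPM of INS, against 2.38 times in PP. Some progenitor markers were low at the stage named PP, where PDX1 was at 3.17 TPM, NKX6-1 at 2.204 TPM and PTF1A at 1.02 TPM. Other progenitor factors had more RNA in PP, among them SOX9 at 23.7 TPM, ONECUT1 at 20.6 TPM and FOXA2 at 13.2 TPM. The paper also stained PP cells for PDX1 and NKX6.1 protein, which was not compared here.

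The sequences upstream of hormone genes are where islet transcription factors act, and they are shown for INS and SST as hormone genes that were higher in the organoids. INS lies on chromosome 11 from 2159779 to 2161221, GCG on chromosome 2 from 162142882 to 162152404 and SST on chromosome 3 from 187668912 to 187670394, all on the minus strand (GENCODE version 44, GRCh38). The RefSeq promoter windows (GRCh38.p14) were cut to the bases upstream of the RefSeq start and of every annotated exon, which left 238 bases for INS (chr11:2161222-2161459) and 250 bases for SST (chr3:187670395-187670644). Only 93 bases were left for GCG, of which an annotated transcript begins inside the window, and that sequence is not printed. Capitals mark the homeodomain core TAAT, the E-box CANNTG, the TATA box letters TATAAA and the cAMP response element TGACGTCA, each searched on both strands.
INS: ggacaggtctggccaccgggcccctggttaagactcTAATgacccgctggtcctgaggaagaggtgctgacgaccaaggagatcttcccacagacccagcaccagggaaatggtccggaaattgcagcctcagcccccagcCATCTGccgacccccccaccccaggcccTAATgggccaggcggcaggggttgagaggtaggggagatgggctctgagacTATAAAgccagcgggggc
SST: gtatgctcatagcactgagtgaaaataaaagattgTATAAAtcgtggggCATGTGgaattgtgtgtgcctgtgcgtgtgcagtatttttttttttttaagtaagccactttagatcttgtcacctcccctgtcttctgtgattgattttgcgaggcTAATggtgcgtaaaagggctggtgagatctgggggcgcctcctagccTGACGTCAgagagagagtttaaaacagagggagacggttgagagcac
The INS stretch held 2 TAAT matches, 1 E-box and 1 TATAAA match, and the SST stretch held 1 of each and 1 cAMP response element. The TATAAA of INS lies near the start of the gene. That of SST lies near the far upstream end of its stretch and is marked by its letters only. Over the 250 bases upstream of 35116 RefSeq starts, TAAT was found in 47.4%, the E-box in 61.8%, TATAAA in 10.7% and TGACGTCA in 1.65%. A match of letters is a description and shows no binding.

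Across the 11117 genes, 1486 (13.4%) were at least 2-fold higher in the organoids and 236 (2.12%) at least 2-fold lower, while 9395 lay within 2-fold. At least 4-fold differences were found in 492 genes with the higher level in the organoids and in 40 with the higher level in PP. The median log2 ratio of all 11117 genes was 0.25. The 6 abundant structural RNA names took 42.2% of the TPM total in PP and 33.9% in the organoids, which shifts every other value, since TPM adds to a fixed total. When both stages were rescaled to their median ratio over the 18706 names at 1 TPM or more in both, the median moved by -0.34 to -0.08, and the counts became 965 higher (8.68%) and 482 lower (4.34%). Higher genes were 86.3% of the 2-fold differences as deposited and 66.7% after rescaling. Small log2 ratios above 0 can fall below 0 on the rescaled scale, as for AFP (0.33 and -0.01). Each gene list below is described by its count and median, to be read beside these values for all genes. Genes below 10 TPM at 1 stage enter only through the other, so a list low in PP can count mainly higher members. Of the 11117 genes, 9188 reached 10 TPM in PP, 10740 in the organoids and 8811 in both.

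**Figure D1:**
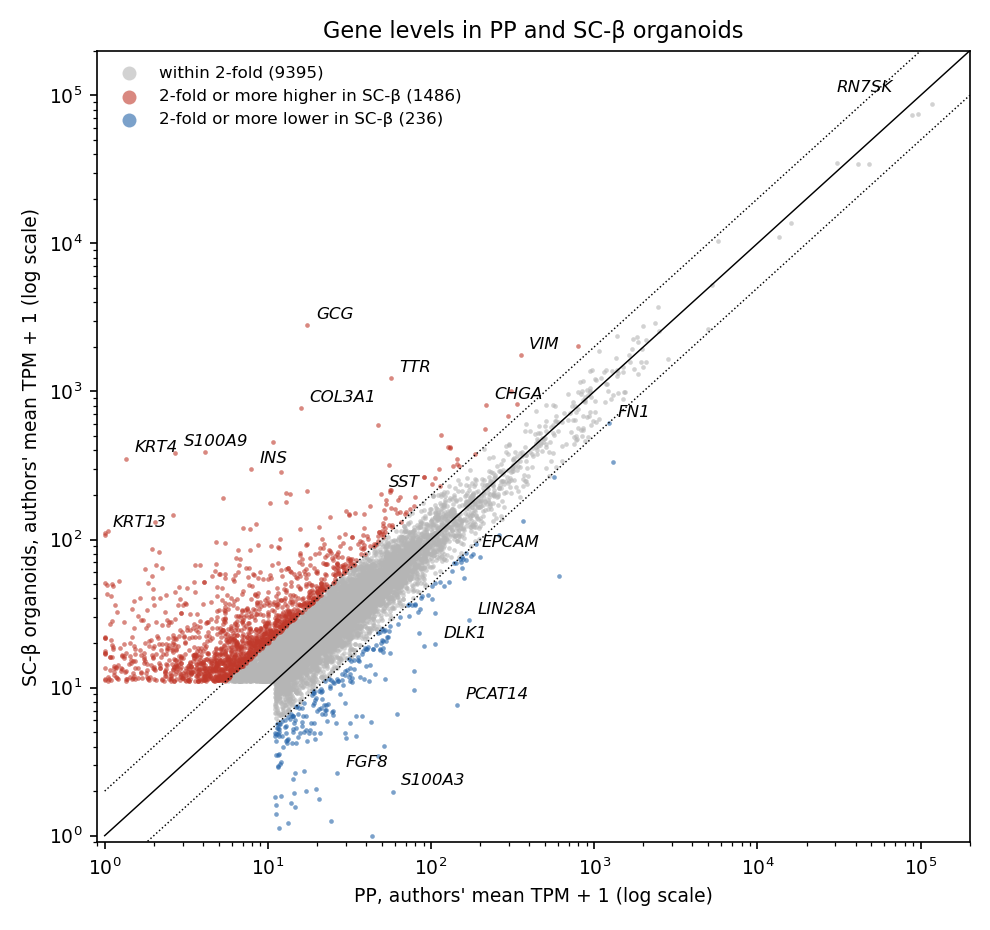
Each point is 1 of the 11117 genes, with the authors' mean TPM + 1 in PP on the horizontal and in the organoids on the vertical log axis; the solid line marks equal levels and the dotted lines 2-fold. The 1486 genes in red lie above the upper dotted line, with GCG, KRT4 and S100A9 farthest from it, and the 236 in blue lie below the lower one, with S100A3 and PCAT14 far below.

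Of the 1486 higher genes, 129 were under 1 TPM in PP, and 1121 were at their highest of all 6 stages in the organoids. A further 150 were highest in PH, a stage whose meaning no source used here gives, 110 in definitive endoderm (DE), 54 in hESCs and 51 in the primitive gut tube-like stage (PGT). Among the 236 lower genes, 97 peaked in PP, 46 in PGT, 40 in DE, 38 in hESCs and 15 in PH. The number of names at 1 TPM or more was 19225 in PP and 24571 in the organoids. Just inside the limit of 10 TPM were MAP3K10 (10.003 and 9.95 TPM) and SMAGP (8.902 and 10.003 TPM in PP and SC-β organoids), and just outside were FBXL20 (6.41 and 9.99 TPM) and LINC01138 (8.08 and 9.99 TPM).

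Most peptide hormones were higher in the organoids, GCG most of all. Of 18 islet and gut hormones, 9 were among the 11117 genes, 8 of them at least 2-fold higher and 0 lower, with a median log2 ratio of 3.20. Of those 8, only GCG and SST reached 10 TPM in PP. The others passed only through the organoids, which fixes their direction, and over all 18 hormones the median was 1.73. As a plain ratio of TPM, GCG had 169 times its PP level, INS 43.01 times and SST 4.22 times. PPY, the hormone of γ cells, was at 0.105 TPM in PP and 15.1 TPM in the organoids. Ghrelin was the exception among the 9 at 10 TPM or more, since GHRL was at 18.1 TPM in PP and 12.7 TPM in the organoids. The gut hormones gastrin (GAST, 9.57 and 66.1 TPM), neurotensin (NTS, 5.58 and 59.5 TPM) and the tachykinin gene TAC1 (0.141 and 11.8 TPM) were also higher in the organoids, as was ADM (adrenomedullin, 1.56 and 10.4 TPM). IAPP, the amyloid peptide that mature β cells release with insulin, stayed below 10 TPM with 0.0723 TPM in PP and 1.83 TPM in the organoids. UCN3, a peptide of mature β cells, reached 0.88 TPM, and NPY (neuropeptide Y) was lower in the organoids, at 8.81 and 1.28 TPM. The readthrough gene INS-IGF2, which shares exon sequence with INS, was at 0.161 TPM in the organoids, a small share beside the 298 TPM under INS.

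Most marker genes of α cells, which make glucagon, were also higher in the organoids. Of 14 α-cell markers 11 passed 10 TPM, with 9 at least 2-fold higher, 1 lower and a median log2 ratio of 3.58. TTR (transthyretin, a thyroid hormone carrier made by α cells and liver) was at 55.8 TPM in PP and 1229 TPM in the organoids. DPP4, a peptidase that cuts incretin hormones, was at 0.955 and 55.8 TPM, LOXL4, a lysyl oxidase, at 1.18 and 39.2 TPM, and CRYBA2, a crystallin, at 1.89 and 38.6 TPM. Of the 9 higher, IRX1, LOXL4, DPP4, FAP and CRYBA2 passed 10 TPM only through the organoids, which fixes their direction. Over all 14 markers the median was 2.01. The 1 lower marker was TM4SF4, a tetraspanin-like membrane protein, at 22.3 TPM in PP and 6.795 TPM in the organoids. FAP, which is also a fibroblast marker, was at 2.03 and 35.3 TPM, and ALDH1A1, a retinaldehyde dehydrogenase, at 30.3 and 145 TPM. In PGT, where GCG was listed at 0, TTR was at 943 TPM, ALDH1A1 at 136 TPM and DPP4 at 22.6 TPM. LOXL4 (1.96 TPM) and CRYBA2 (1.20 TPM) were low there.

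Enterochromaffin cells are the serotonin-making cells of the gut epithelium. Of 5 of their markers at 10 TPM or more, 4 were at least 2-fold higher, with a median log2 ratio of 3.34. Those 4 passed 10 TPM only through the organoids, which fixes their direction, and over all 9 markers the median was 1.64. LMX1A, a transcription factor of these cells, was at 0.822 TPM in PP and 32.2 TPM in the organoids. TPH1, the enzyme that starts serotonin synthesis, was at 0.5 and 14.2 TPM. DDC, which completes that synthesis, was at 5.44 and 18.998 TPM. SLC18A1, the vesicular monoamine transporter of these cells, was at only 0.955 TPM in the organoids, and GCH1, which makes a cofactor of TPH1, was lower there (11.8 and 4.54 TPM). Among the 6 markers of δ, γ and ε cells at 10 TPM or more, 3 were higher and 1 lower, with a median log2 ratio of 1.08, which was -0.19 over those with a mean of both stages of 10 TPM or more, a limit that leaves out PPY and RBP4. The lower one was BCHE, a cholinesterase, at 61.1 TPM in PP and 5.64 TPM in the organoids, and RBP4, the retinol carrier of blood, was higher, at 0.186 and 10.6 TPM. HHEX, the δ-cell transcription factor, was below 10 TPM at both stages, with 8.03 and 2.58 TPM, the lower value in the organoids.

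Endocrine transcription factors were all at lower TPM than GCG, INS and SST in the organoids. Only 10 of 26 reached 10 TPM, of which 5 were at least 2-fold higher and 1 lower, with a median log2 ratio of 1.22 (0.90 after rescaling). Those 5 passed 10 TPM only through the organoids, which fixes their direction, and over all 26 factors the median was 0.92. NEUROD1, a factor of all endocrine cells, was at 4.16 TPM in PP and 20.98 TPM in the organoids. ST18, a zinc-finger factor of endocrine and neural cells, was at 4.93 and 15.5 TPM, and IRX1, an α-cell factor, at 2.32 and 10.4 TPM. The lower one was SIX2, a factor of maturing β cells, at 16.9 TPM in PP and 3.92 TPM in the organoids. ISL1 (13.98 and 18.9 TPM) and RFX6 (8.54 and 14.2 TPM) lay within 2-fold. The factors of the β-cell path were low at both stages: NKX6-1 was at 2.204 and 5.37 TPM, PDX1 at 3.17 and 1.57 TPM, and MAFA, the factor of mature β cells, at 0.239 and 0.401 TPM. NEUROG3, the marker of the transient endocrine progenitor, was at 0.556 TPM in PP and 0.313 TPM in the organoids.

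Dense-core granules store hormones, and the genes that build them and process prohormones had 10 of 18 members at 10 TPM or more that were at least 2-fold higher, 0 lower and a median log2 ratio of 1.24. Of those 10, only CHGA, SCG2 and SCG5 reached 10 TPM in PP. The others passed only through the organoids, which fixes their direction, and over all 30 genes the median was 1.06. The granule protein CHGA (chromogranin A) was at 215 TPM in PP and 805 TPM in the organoids, and SCG2 (secretogranin II) at 15.7 and 60.4 TPM. SLC30A8, which loads zinc into insulin granules, was at 0.11 and 27.1 TPM, the widest log2 ratio of the list (4.66). Of the convertases, PCSK2, which cuts proglucagon and proinsulin, was at 2.71 and 11.4 TPM, while PCSK1 stayed below 10 TPM at 0.61 and 8.52 TPM. CPE, the carboxypeptidase that trims the cut prohormones, was already at 147 TPM in PP and was at 108 TPM in the organoids. So the granule proteins and the zinc transporter were higher in the organoids while CPE and PAM, the amidating enzyme (82.3 and 78.3 TPM), lay within 2-fold.

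Genes by which β cells sense glucose had 7 of 10 members at 10 TPM or more that were at least 2-fold higher and 0 lower, with a median log2 ratio of 1.70. Those 7 passed 10 TPM only through the organoids, which fixes their direction, and over all 25 genes the median was 0.90. ABCC8, the sulfonylurea receptor of the KATP channel, was at 4.27 TPM in PP and 38.3 TPM in the organoids, and the calcium channel subunits CACNA1C and CACNA1D at 2.12 and 19.4 TPM and at 1.57 and 13.4 TPM. ERO1B, which forms disulfide bonds in proinsulin, was at 6.08 and 27.6 TPM. The channel pore KCNJ11 (2.64 and 6.56 TPM), the glucose transporter SLC2A2 (0.528 and 7.704 TPM) and the β-cell phosphatase G6PC2 (0.0169 and 0.532 TPM) were all below 10 TPM. SLC2A1, the transporter of most dividing cells, was at 37.8 and 53.2 TPM.

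**Figure D2:**
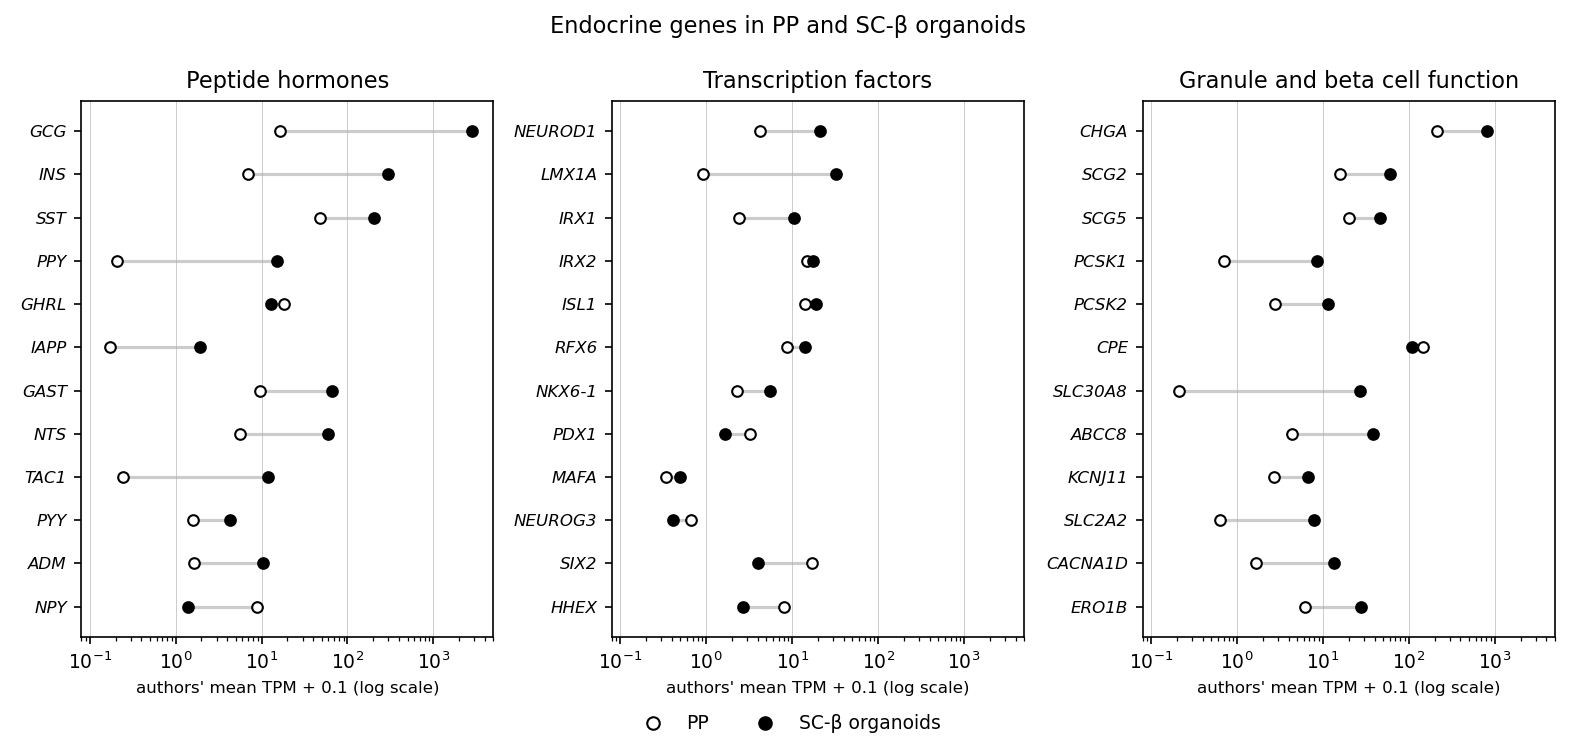
Authors' mean TPM + 0.1 on a log axis for peptide hormones (left), endocrine transcription factors (middle) and granule and β-cell function genes (right), with open circles for PP and filled circles for SC-β organoids, 1 mean each. GCG spans 16.5 to 2793 TPM and INS 6.93 to 298 TPM, while PDX1, MAFA and NEUROG3 lie below 5 TPM at both stages.

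Transcription factors of the pancreatic progenitor and its endoderm differed in both directions. Of 23, 12 reached 10 TPM, with 2 at least 2-fold higher, 3 lower and a median log2 ratio of 0.06, which was -0.27 after rescaling (1 higher and 5 lower), so the sign of the median depends on the scale. The lower ones were ONECUT1 (20.6 TPM in PP and 5.64 TPM in the organoids), a factor upstream of NEUROG3, GATA4 (10.2 and 2.53 TPM), an endoderm factor, and FOXA2 (13.2 and 5.44 TPM), a pioneer factor of endoderm. SOX9, which marks progenitors and ducts, was at 23.7 and 25.2 TPM. The MEIS factors, homeodomain partners of HOX proteins, were among the most abundant of the list, with MEIS1 at 128 and 229 TPM and MEIS2 at 102 and 197 TPM.

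Exocrine and other endoderm genes were mixed. Acinar cells secrete digestive enzymes, and 4 of 17 acinar markers reached 10 TPM, with 2 higher and 1 lower (median log2 ratio 1.24). Those higher were PRSS1 (trypsinogen, 4.08 and 19.2 TPM) and REG1A (0.0821 and 12.1 TPM). Both passed 10 TPM only through the organoids, which fixes their direction, and over all 17 markers the median was 0.12. CTRB1, CTRC, CELA3A and CLPS, which define acinar cells, were each below 1 TPM at both stages, and RBPJL was listed at 0. Ductal markers had 4 of 10 higher and 0 lower, with CFTR, the chloride channel, at 2.67 and 12.5 TPM, KRT7 at 6.45 and 19.7 TPM and the trefoil factor TFF1 at 0.0915 and 19.9 TPM, and a median of 0.41 (3 higher and 1 lower after rescaling). CA2, the carbonic anhydrase of ducts, was at 12.5 and 31.4 TPM. KRT19, the most abundant of the ductal list, was at 170.5 and 231 TPM.

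Genes of secreted proteins of liver and visceral endoderm had 5 of 14 higher and 2 lower, with a median log2 ratio of 0.83. ALB (albumin) was at 0.649 TPM in PP and 39.3 TPM in the organoids and the apolipoprotein gene APOC3 at 1.76 and 12.3 TPM. APOA4 was listed at 0 in PP and was at 12.7 TPM in the organoids. AFP, the fetal counterpart of albumin, differed little (27.1 and 34.3 TPM), while AMBP (119 and 47.4 TPM) and VTN (29.5 and 12.1 TPM), which both encode plasma proteins, were lower. Intestinal and gastric markers had 3 of 5 higher and 0 lower (median 1.52). Those higher were FABP1, a fatty acid carrier of enterocytes (1.803 and 35.3 TPM), the mucin MUC13 (0.011 and 20.5 TPM) and the intestinal cadherin CDH17 (3.74 and 12.6 TPM). All of these passed 10 TPM only through the organoids, which fixes their direction, and over all 14 markers the median was 0.94. CDX2, the defining factor of intestine, was at 2.09 and 2.16 TPM.

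Genes of epithelial junctions and simple epithelial keratins had a median below 0. Of 20 at 10 TPM or more, 1 was at least 2-fold higher and 4 were lower, and the median log2 ratio was -0.52 (-0.86 after rescaling, with 6 lower). EPCAM, an adhesion protein of epithelia, was at 179.9 TPM in PP and 79.4 TPM in the organoids, the claudin CLDN3 at 11.7 and 4.43 TPM, occludin (OCLN) at 30.5 and 14.6 TPM and the epithelial factor GRHL2 at 31.3 and 14.1 TPM. E-cadherin (CDH1) lay within 2-fold, at 92.6 and 71.3 TPM. The higher one was ELF3, an ETS factor of epithelia, at 7.54 and 36.4 TPM.

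Genes of stratified squamous epithelium, the layered lining of skin and esophagus, held several of the largest log2 ratios. This list was put together after the values were seen, so its count is a description of those genes only. Of its 28 genes, 14 reached 10 TPM, and all 14 of these were higher in the organoids. The whole list summed to 19.8 TPM in PP and 1322 TPM in the organoids. Its members thus passed 10 TPM almost only through the organoids, which largely fixes the direction of this count. Over all 28 genes the median log2 ratio was 2.40, against 5.02 over the 14. KRT4, a keratin of the esophagus, was at 0.348 TPM in PP and 351 TPM in the organoids, with a log2 ratio of 8.03, the largest of all protein-coding genes. KRT13, its partner, was listed at 0 in PP and was at 109.9 TPM in the organoids, and KRT1, a keratin of differentiated epidermis, was likewise listed at 0 in PP and was at 49.9 TPM in the organoids. KRT17, a keratin of basal and stressed epidermis, was at 0.0415 and 113 TPM, and KRT15 at 0.595 and 29.6 TPM. These keratins come from both gene clusters, KRT4 and KRT1 on chromosome 12 and KRT13, KRT15 and KRT17 on chromosome 17. The cornified envelope genes SCEL (0.0318 and 48.1 TPM), SPRR3 (listed at 0 and 20.99 TPM) and SPRR1B (listed at 0 and 16.2 TPM) were higher as well. Of other genes of this epithelium, TP63, a transcription factor of its basal layer, was at 4.48 TPM in PP and 2.13 TPM in the organoids, KRT5 at 1.71 and 2.11 TPM and KRT14 at 0 (listed) and 0.0117 TPM.

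S100 genes encode small calcium-binding proteins, many of them from a cluster on chromosome 1 that also holds the SPRR genes. S100A9 was at 1.71 TPM in PP and 386 TPM in the organoids, and S100A8, with which it forms calprotectin, was listed at 0 in PP and was at 106 TPM in the organoids. S100A14 was at 0.464 and 33.2 TPM. S100A3, a member of the same cluster, was lower in the organoids, at 57.1 TPM in PP and 0.986 TPM there, the largest negative log2 ratio (-4.87) of all protein-coding genes. In GENCODE version 44 (GRCh38), S100A9 spans 153357854 to 153361023, S100A8 153390032 to 153391073, S100A3 153547329 to 153549258 and S100A14 153614255 to 153616986. S100A3 thus lies between S100A8 and S100A14, both of which had higher levels in the organoids. Over the 11 S100 genes at 10 TPM or more, chosen after values were seen, 5 were higher and 3 lower, with a median log2 ratio of 0.39. Calprotectin is also abundant in neutrophils and monocytes. The 15 blood cell markers summed to 7.18 TPM in PP and 74.99 TPM in the organoids. LYZ (lysozyme), a gene of those cells and of gut epithelium, was at 2.57 and 65.9 TPM. The other 14 were each below 5 TPM in the organoids, where CD68 was at 1.899 TPM and FCER1G at 0.969 TPM, PTPRC, SPI1 and CD14 were each below 0.2 TPM, and TYROBP was listed at 0. Their part in the S100 levels was not tested.

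Mesenchymal genes were higher in many members. Of 20 mesenchymal transcription factors at 10 TPM or more, 15 were at least 2-fold higher and 0 lower, with a median log2 ratio of 2.01 (13 higher and 1 lower after rescaling). PRRX1, a factor of limb and lateral mesoderm, was at 16.4 TPM in PP and 213 TPM in the organoids, TWIST1 at 9.402 and 89.7 TPM and OSR1 at 4.49 and 30.9 TPM. The repressors of epithelial genes SNAI1 (2.695 and 24.9 TPM), SNAI2 (7.36 and 32.6 TPM) and ZEB1 (4.36 and 32.5 TPM) were also higher. MSX2 (43.2 and 49.3 TPM) and NR2F2 (29.1 and 50.3 TPM) lay within 2-fold. BARX1, a factor of stomach mesenchyme, was below 10 TPM at both stages, at 5.44 and 4.52 TPM.

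Fibroblast and extracellular matrix genes had 16 of 27 at least 2-fold higher and 1 lower, with a median log2 ratio of 2.32. Collagen III (COL3A1) was at 14.9 TPM in PP and 771 TPM in the organoids, collagen VI chain COL6A3 at 1.63 and 144 TPM and COL1A2 at 114 and 509 TPM. POSTN (periostin) was at 11.05 and 283 TPM and the growth factor receptor PDGFRA, a fibroblast marker, at 11.9 and 205 TPM. Vimentin (VIM), the intermediate filament of mesenchyme, was at 353 and 1767 TPM, and the ratio of VIM to EPCAM was 1.96 in PP and 22.2 in the organoids. Not all matrix genes were higher: FN1 (fibronectin) was lower in the organoids (1232 and 609 TPM), TNC (tenascin C) was at 196 and 99.1 TPM, and FBLN1 (fibulin 1) was at 116 and 128 TPM. COL5A2 was at 142 and 115 TPM.

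Smooth muscle and pericyte markers had 8 of 11 higher and 0 lower, with a median log2 ratio of 1.39. TAGLN (transgelin) was at 14.6 TPM in PP and 117 TPM in the organoids and ACTA2 (smooth muscle actin) at 15.2 and 73.1 TPM. The late markers MYH11 and DES stayed at 1.42 and 2.597 TPM in the organoids. Skeletal and cardiac muscle markers were mostly below 10 TPM (18 of 20), with PAX3 (30.9 and 72.6 TPM), which also marks dorsal neural cells, higher and TNNT1 (16.1 and 5.47 TPM), a slow muscle troponin, lower. The muscle-defining factor MYOD1 was listed at 0 in PP and at 0.114 TPM in the organoids. Of 11 cartilage and bone markers at 10 TPM or more, 3 were higher and 3 lower (median -0.14). COL2A1, the collagen of cartilage and of many embryonic epithelia, was at 364 and 133 TPM, HAPLN1, which links hyaluronan to proteoglycan, at 42.03 and 4.87 TPM, and COL11A1 at 16.7 and 57.1 TPM.

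Endothelial and blood markers were nearly all below 10 TPM. Only EGFL7 (9.37 and 12.98 TPM) of 16 endothelial markers reached 10 TPM, and PECAM1 and CDH5, which define endothelium, were at 0.00522 and 0.0955 TPM in the organoids. Of the blood cell markers given above only LYZ reached 10 TPM.

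**Figure D3:**
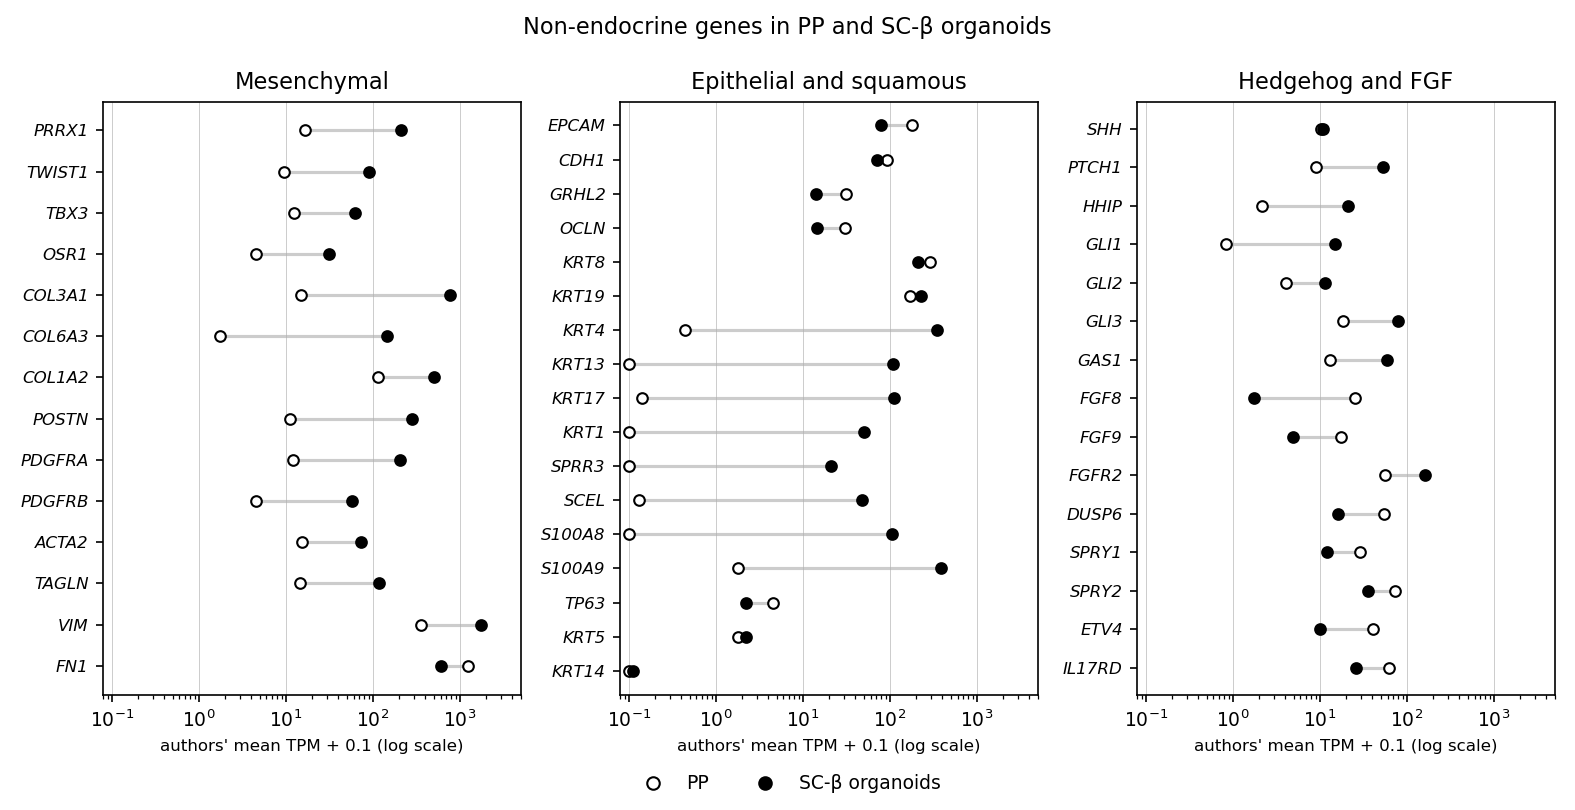
Authors' mean TPM + 0.1 on a log axis for mesenchymal genes (left), epithelial and squamous genes (middle) and Hedgehog and FGF genes (right), with open circles for PP and filled circles for SC-β organoids. COL6A3 spans 1.63 to 144 TPM and KRT4 0.348 to 351 TPM, and in the right panel PTCH1 and GLI1 are higher in the organoids while FGF8 and DUSP6 are lower.

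Neuronal genes had 4 of 9 at least 2-fold higher and 0 lower, with a median log2 ratio of 0.97. GAP43, a growth cone protein, was at 3.47 TPM in PP and 36.6 TPM in the organoids, STMN2 (stathmin 2) at 4.48 and 31.7 TPM and SNAP25, a vesicle fusion protein that endocrine cells share, at 3.97 and 13.2 TPM. TUBB3, a tubulin of neurons, was at 76.3 and 54.3 TPM, and the postmitotic marker RBFOX3 at 0.34 and 1.41 TPM. Neural progenitor and glial markers had 5 of 10 higher and 2 lower (median 0.71, with 3 higher after rescaling). The glutamate transporter SLC1A3 (20.4 and 100.1 TPM), ZIC1 (17.2 and 73.7 TPM), a factor of dorsal neural cells and of mesenchyme, and NES (nestin, 50.9 and 111 TPM) were higher. Lower were S100B (28.7 and 3.93 TPM), a glial protein, and PTPRZ1 (48.8 and 19.96 TPM), a receptor phosphatase, while SOX2 lay within 2-fold (68.2 and 50.9 TPM).

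Neural crest and Schwann cell genes had a median below 0. Of 10 at 10 TPM or more, 5 were at least 2-fold lower and 3 higher, with a median log2 ratio of -0.98. TFAP2B, a neural crest factor, was at 36.98 TPM in PP and 5.42 TPM in the organoids, the receptor ERBB3 at 81.998 and 31.6 TPM and the nerve growth factor receptor NGFR at 49.7 and 19.6 TPM. SOX10 (8.69 and 0.649 TPM) and FOXD3 (9.72 and 0.353 TPM), the factors that define the early crest, were just below 10 TPM in PP and below 1 TPM in the organoids. Pigment genes, a list made after the values were seen, had 3 of 4 higher: TYRP1 was at 0.103 and 49.1 TPM, DCT at 0.471 and 20.8 TPM and PMEL at 9.36 and 56.3 TPM, all of which act in melanosomes. Their regulator MITF was at 13.8 TPM in PP and 8.35 TPM in the organoids, within 2-fold and lower, and TYR (tyrosinase) was below 10 TPM, at 0.121 and 6.25 TPM.

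Hedgehog signals bind PTCH1 and free Smoothened, and GLI1, PTCH1 and HHIP are the usual target genes. Of 11 pathway genes at 10 TPM or more, 8 were at least 2-fold higher and 0 lower, with a median log2 ratio of 2.01 and the same counts after rescaling. The ligand SHH was at 10.1 TPM in PP and 10.9 TPM in the organoids and SMO at 43.2 and 55.3 TPM, both within 2-fold. The targets GLI1 (0.747 and 14.98 TPM), PTCH1 (9.04 and 53.05 TPM) and HHIP (2.05 and 20.9 TPM) were higher, and so were the co-receptors BOC (51.6 and 185 TPM), CDON (40.99 and 169 TPM) and GAS1 (12.9 and 59.3 TPM). SANT1 was in the medium before and shortly after day 14 and was no longer given at day 35.

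FGF genes were the signaling group with the most lower members. Of 11 ligands, receptors and response genes at 10 TPM or more, 5 were at least 2-fold lower and 1 higher, with a median log2 ratio of -0.83 (7 lower after rescaling). The ligand FGF8 was at 25.5 TPM in PP and 1.66 TPM in the organoids and FGF9 at 17.5 and 4.79 TPM, while the receptor FGFR2 was higher, at 55.6 and 162 TPM. Feedback genes that ERK signaling induces were also lower, with DUSP6 at 54.9 and 16.2 TPM, SPRY1 at 28.7 and 12.01 TPM and SPRY2 at 72.2 and 35.4 TPM. In a list of 11 such feedback genes, drawn up after the values were seen, 6 were lower and 0 higher, among them ETV4 (40.8 and 9.99 TPM) and IL17RD (61.98 and 25.9 TPM). The medium held KGF (FGF7) before day 14 and none later.

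WNT genes had 11 of 21 at least 2-fold higher and 2 lower, with a median log2 ratio of 1.09 (0.77 after rescaling, with 9 higher and 3 lower). Of the ligands, WNT2B was at 0.791 TPM in PP and 24.4 TPM in the organoids and WNT4 at 4.58 and 19.2 TPM, and the amplifier RSPO3 was at 1.49 and 26.6 TPM. The feedback targets AXIN2 (25.9 and 81.9 TPM) and NKD1 (5.51 and 27.1 TPM) were higher together with the secreted inhibitors DKK1 (3.79 and 27.4 TPM), DKK2 (2.47 and 24.2 TPM), WIF1 (1.74 and 20.3 TPM) and SFRP1 (22.97 and 141 TPM). Ligands, targets and inhibitors were thus all among the higher genes. The receptor FZD5 (33.5 and 5.397 TPM) and the inhibitor SFRP5 (15.6 and 1.72 TPM) were lower.

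TGF-β and activin genes had 10 of 23 higher and 0 lower (median log2 ratio 0.76). The response gene TGFBI was at 9.32 TPM in PP and 177 TPM in the organoids, the ligand TGFB2 at 5.57 and 83.4 TPM and the activin subunit INHBA at 0.251 and 12.6 TPM. CTGF (5.44 and 21.6 TPM) and CYR61 (4.98 and 25.2 TPM), which respond to TGF-β and to YAP, were higher. Alk5i II, which blocks TGF-β receptors, was in the medium from day 14 to day 35. BMP genes had 3 of 15 higher and 0 lower (median 0.69), with the target ID1 at 147 and 314 TPM and SMAD9 at 3.42 and 14.7 TPM. After rescaling 1 BMP gene was higher.

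Retinoic acid genes had 6 of 14 higher and 1 lower (median 0.71). The synthesis enzymes ALDH1A2 (1.44 TPM in PP and 25.6 TPM in the organoids) and RDH10 (11.8 and 48.8 TPM) were higher, the binding protein CRABP2 was lower (563 and 263 TPM), and the degrading enzyme CYP26A1 was at 1.65 and 2.68 TPM. Notch genes had 1 of 9 higher and 1 lower (median 0.46), namely the receptor NOTCH2 (35.5 and 97.1 TPM) and HES6 (15.1 and 6.32 TPM), a bHLH factor that opposes HES1. The Notch target HES1 was at 44.4 and 49.99 TPM. EGF family genes had 3 of 5 higher, with the ligand AREG at 1.29 and 15.7 TPM, EGF at 2.28 and 13.3 TPM and the receptor EGFR at 5.97 and 32.6 TPM, and 1 lower, ERBB3 as above (median 2.12). Those 3 passed 10 TPM only through the organoids, which fixes their direction, and over all 14 genes the median was 0.81. Thyroid hormone genes had 2 of 6 higher and 0 lower (median 0.69). DIO3, which inactivates T3, was at 2.02 and 10.6 TPM, and KLF9, a T3 target, was below the limit at 0.194 and 8.62 TPM.

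**Figure D4:**
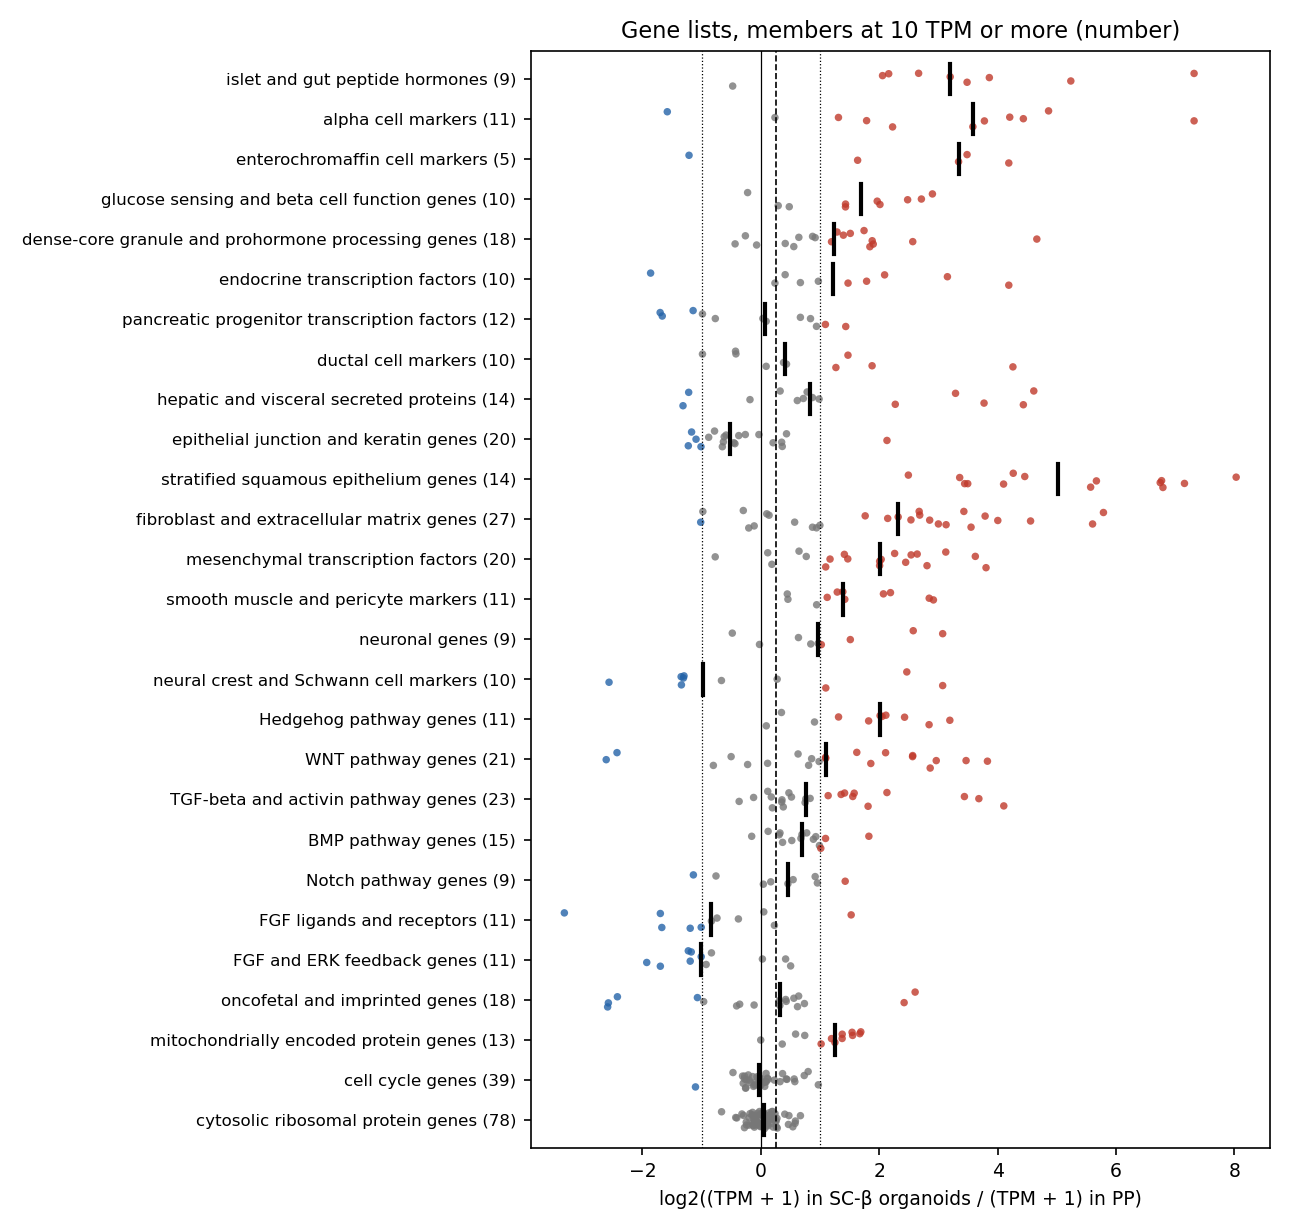
Each point is a gene at 10 TPM or more in PP or SC-β organoids, placed by its log2 ratio of SC-β organoids to PP, for 27 lists with the number of such genes in parentheses; black bars are list medians, the dashed line is the median of all 11117 genes (0.25) and the dotted lines mark 2-fold. The hormone, α-cell, enterochromaffin, squamous, matrix, mesenchymal transcription factor and Hedgehog medians lie to the right of 2. The FGF, FGF and ERK feedback, neural crest, epithelial junction and cell cycle medians lie to the left of 0, cell cycle only just (-0.02). The squamous list and the list of FGF and ERK feedback genes were made after the values were seen.

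HOX genes sit in 4 clusters, and the paralogue number gives a gene's place along its cluster and, in the embryo, along the body axis. Of 36 HOX genes 13 reached 10 TPM, with 6 at least 2-fold higher and 3 lower, and a median log2 ratio of 0.90. The lower ones included, from the most anterior groups, HOXB1 (12.3 TPM in PP and 0.212 TPM in the organoids) and HOXB2 (20.1 and 8.76 TPM). The higher ones were of groups 3 to 6, HOXA3 (11.1 and 29.5 TPM), HOXC4 (9.73 and 35.6 TPM), HOXD4 (4.87 and 21.4 TPM), HOXA5 (12.8 and 47.4 TPM), HOXC5 (4.94 and 39.2 TPM) and HOXC6 (0.181 and 10.8 TPM). Groups 1 and 2 each also held 1 gene with a log2 ratio above 0 (1.05 and 0.78). Summed over a paralogue group, group 1 was at 31.9 TPM in PP and 11.3 TPM in the organoids and group 2 at 36.7 and 38.0 TPM. Group 5 was at 21.2 and 92.5 TPM and group 9 at 0.182 and 6.91 TPM. Groups 10 to 13 stayed below 3 TPM in sum at both stages.

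Cell cycle genes gave no such pattern. Of 39 at 10 TPM or more, 0 were at least 2-fold higher and 1 was lower, CDKN1A, an inhibitor of cyclin-dependent kinases (51.4 TPM in PP and 23.4 TPM in the organoids). Their median log2 ratio was -0.02, and -0.37 after rescaling. MKI67, the usual marker of dividing cells, was at 17.3 and 34.8 TPM, within 2-fold.

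Oncofetal and imprinted genes had 2 of 18 higher and 4 lower (median 0.32, and -0.03 after rescaling). LIN28A, which blocks let-7 processing in early cells, was at 169 TPM in PP and 27.5 TPM in the organoids, LIN28B at 75.1 and 35.2 TPM, DPPA4 at 77.2 and 12.01 TPM and DLK1, an imprinted Notch-like ligand, at 105 and 18.7 TPM. PEG10 (16.5 and 92.5 TPM) and PLAGL1 (5.99 and 41.6 TPM), both imprinted, were higher. Immediate early and stress genes had 5 of 19 higher and 0 lower (median 0.44), the AP-1 genes FOS (6.54 and 54.9 TPM) and JUN (17.01 and 66.1 TPM) among them, while the heat shock gene HSPA1A was at 24.3 and 16.7 TPM. Hypoxia and glycolysis genes had 2 of 17 higher and 0 lower (median 0.00, and -0.34 after rescaling), with VEGFA at 48.2 and 46.6 TPM.

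Mitochondrially encoded protein genes had 9 of 13 higher (6 after rescaling) and 0 lower, with a median log2 ratio of 1.25. MT-ND4 was at 129.7 and 421 TPM and MT-CYB at 214 and 557 TPM, whereas the more abundant MT-CO3 was at 5239 and 5233 TPM. None of the 78 cytosolic ribosomal protein genes differed by 2-fold as deposited, and their median was 0.05 (-0.30 after rescaling). None of the 6 abundant structural RNA names did either (median -0.32).

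Genes of the response to the aryl hydrocarbon receptor, a sensor of small aromatic molecules, and interferon genes were also looked at, as lists made after the values were seen. CYP1A1 was at 1.07 TPM in PP and 65.9 TPM in the organoids and CYP1B1 at 1.03 and 131 TPM, both cytochrome P450 enzymes that the receptor induces, and AHR itself at 10.4 and 22.97 TPM. Of 6 genes of that list at 10 TPM or more, 3 were higher (2 after rescaling), and NQO1 was at 28.6 and 26.8 TPM (median 0.87). Of 11 interferon and MHC class I genes, 6 were higher and 0 lower (median 1.31). The death ligand TNFSF10 (0.165 and 34.97 TPM), IFITM1 (7.17 and 56.8 TPM) and the MHC light chain B2M (62.1 and 184 TPM) were higher, while the heavy chain HLA-B (37.2 and 28.1 TPM) lay within 2-fold.

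The 15 protein-coding genes with the largest log2 ratios in the organoids were led by KRT4, GCG, S100A9, KRT13, KRT17 and S100A8. They went on with ANXA1 (annexin A1, 3.12 and 389 TPM), CYP1B1, COL6A3, KRT1, COL3A1, SCEL and TYRP1, and ended with WSCD2 (0.947 and 84.6 TPM) and the laminin chain LAMA2 (0.232 and 51.4 TPM). Squamous, matrix, pigment and hormone genes thus shared the top places. The 15 largest negative log2 ratios included S100A3, HOXB1, FGF8, BCHE and HAPLN1 given above, and FABP9, a fatty acid binding protein (23.3 and 0.265 TPM), the choline transporter SLC5A7 (18.8 and 1.07 TPM) and HLA-DMB, of the MHC class II pathway (13.7 and 0.569 TPM). INSC, which orients the mitotic spindle (16.1 and 0.991 TPM), the enamel protein AMBN (12.8 and 0.673 TPM), the calcium buffer CALB1 (33.6 and 3.68 TPM), the peptide ligand APLN (10.3 and 0.599 TPM), PPAP2C, a lipid phosphatase now named PLPP2 (29.2 and 3.56 TPM), and VGLL2 (10.99 and 0.852 TPM) were the others, with BLOC1S5-TXNDC5. That last name is a readthrough gene (50.5 and 3.02 TPM) that shares its reads with TXNDC5 (74.98 and 60.7 TPM), and its value is uncertain.

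By gene type, 9993 of the 11117 genes matched a protein-coding gene, of which 1159 (11.6%) were higher, and 219 matched a long noncoding RNA, of which 64 (29.2%) were higher and 6 lower. Among other RNAs the largest positive log2 ratios were those of MIR7705, SNORD118, RPL7P36, MIR3612 and RNU7-99P, short or repeated genes whose reads can come from a host gene or a near-identical copy. The long noncoding RNAs PCAT14 (144 TPM in PP and 6.57 TPM in the organoids), FIRRE (46.5 and 2.46 TPM) and LINC01198 (19.5 and 0.776 TPM) had the largest negative log2 ratios with RNVU1-14 and RN7SL471P, both of which have near-identical copies. PCAT14 and FIRRE had their peaks before PP, at 565 TPM in DE for PCAT14 and at 153 TPM in PGT for FIRRE.

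Outside mitochondrial and ribosomal protein genes, the most abundant protein-coding name in the organoids was GCG. It was followed by the elongation factor EEF1A1 (2549.7 TPM), VIM (1767 TPM), EEF2 (1678 TPM), the histone HIST1H4E (1569 TPM), TMSB10 (1469 TPM), GAPDH (1457 TPM), ACTB (1383 TPM), FTL (1358 TPM) and the histone HIST1H1B (1311 TPM). Only GCG and VIM of these 10 differed by 2-fold from PP. The 5 islet hormones INS, GCG, SST, PPY and GHRL took 0.00898% of the TPM total in PP and 0.332% in the organoids.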

How the data were processed

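RNA-seq of PP and SC-β organoids, 2 samples per stage in the labels, was analyzed. The authors' alignment used HISAT2 (version 2.2.0) and build hg38, and StringTie (version 2.1.6) gave the levels. The deposited table holds their mean TPM over the replicates of each stage, so depth, counts and replicate spread are unknown, no interval or test was possible, and the authors' own differential expression, which needs counts, was not repeated. The methods name ribosomal RNA removal and the labels an mRNA kit, and which was used is not settled. The annotation behind the table is not given in the sources used here.

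Entries sharing a name were summed (50451 entries, 49085 names, 231 repeated). Log2 ratios used a pseudocount of 1 TPM and understate differences of low genes, genes were kept from 10 TPM in either stage, and 2-fold was counted. Members and gene lists were chosen with earlier results of these data known: 40 lists, and 6 more made after the values were seen. Named genes were drawn from list members at 10 TPM or more that differed by 2-fold, marker genes whose level answers a group's question, the 15 protein-coding names at either extreme, the 5 other RNAs at either extreme and the 10 most abundant names; other names and which members have values printed were chosen after values were seen. Of the 11117 names, 10642 matched GENCODE version 44 directly or by an older symbol (RefSeq), which gave types and positions. Some list members are counted but not reported here by name. Motif shares used RefSeq promoters (GRCh38.p14).

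The alternatives were pseudocounts of 0.1 and 5 TPM, median-ratio rescaling, totals without structural RNAs, mitochondrial genes or the 100 most abundant names, a limit of 1 TPM in either stage or of 10 TPM in the mean of both, the highest entry of a name, and 4-fold. The calculation was tested on simulated data. Python 3.11.15, numpy 2.4.6, pandas 2.3.3 and matplotlib 3.10.9 were used.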

Additional observations from a re-analysis of the deposited data

How the results depend on the processing

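Against 1486 genes at least 2-fold higher and 236 lower, the counts were 1013 and 157 with a pseudocount of 5 TPM, 1597 and 257 with 0.1 TPM, 965 and 482 after median-ratio rescaling, 1191 and 353 with totals free of structural RNAs, 1109 and 413 without the 100 most abundant names, 5206 and 461 among the 25090 names at 1 TPM or more in either stage, 983 and 171 with a mean of both stages of 10 TPM or more, and 492 and 40 at 4-fold. Totals without mitochondrial genes (1494 and 232) and the highest entry of a name (1474 and 236) changed little. The median of the δ, γ and ε cell markers reversed to -0.19 with the mean of both stages, a limit that PPY and RBP4 did not pass. No paired analysis was possible because the table holds only a mean per stage, and for the same reason leaving out a replicate was not possible. Values near 2-fold or near 10 TPM are the least certain, since neither depth nor replicate spread is known.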
